A study of Mus musculus with 30 samples.

Results

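Transcripts of 9 extracellular matrix proteoglycan genes were followed in mouse left ventricle: the small leucine-rich proteoglycans biglycan (Bgn), decorin (Dcn), asporin (Aspn), lumican (Lum), fibromodulin (Fmod), prolargin (Prelp) and osteoglycin (Ogn), and the large proteoglycans versican (Vcan) and perlecan (Hspg2). The genes were chosen by name with earlier results of these data known, and each symbol was matched to its gene ID. Shares of all genes given beside counts of members are therefore a description and not a test. All 9 were found among the 24467 genes listed, and all 9 passed the filter on low counts, which left 13588 genes for testing. RNA came from 30 left ventricles in 4 groups: 10 hearts of hRXFP1 transgenic mice after 8 weeks of TAC (TG TAC), 10 of non-transgenic mice after 8 weeks of TAC (NTG TAC), 5 transgenic hearts after sham surgery (TG Sham) and 5 non-transgenic hearts after sham surgery (NTG Sham). TAC, transverse aortic constriction, narrows the aorta and loads the left ventricle with pressure. The transgene encodes human RXFP1, the relaxin receptor, and was placed in cardiomyocytes according to the study's title. The promoter, the number of transgenic lines, and the strain, age and sex of the mice are not given in the sources used here. The titles number the hearts of a group without stating that each is a separate animal, so p-values measure the spread between these samples. The study's title asks about overexpression of the receptor under pressure overload without relaxin, and the labels name no relaxin treatment in any group.

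Members of the proteoglycan families are core proteins, most of which carry long sulfated sugar chains, the glycosaminoglycans. The small leucine-rich members bind fibrillar collagen, set the spacing and thickness of its fibrils and hold growth factors such as TGF-beta. Versican binds hyaluronan in loose, provisional matrix, and perlecan carries heparan sulfate in the basement membranes around cardiomyocytes and vessels. In the heart the small members are made mostly by fibroblasts, and scarring matrix is known for its content of biglycan and versican.

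Library totals ran from 9231678 to 13093351 counts. Values are given as CPM, counts relative to the library total, scaled by TMM factors (TMM-scaled CPM), and a difference was called at an adjusted p under 0.05 in edgeR's quasi-likelihood test over all 13588 genes. At this depth 8 of the members had at least 76 counts in every heart. Fmod had 1 to 10 counts in the Sham libraries, where a count of 3 is near the limit of detection, so its Sham values carry a large counting error. The files list mouse genes only, with 0 to 14 counts of mouse Rxfp1 per library, so the human transgene gave no check of the genotype labels. Defining cardiomyocyte genes had the largest summed level of the marker lists, 47387 to 91570 CPM, and the atrial genes Myl7, Sln, Myl4, Bmp10 and Dkk3 summed to 3.10 to 34.0 CPM. In whole tissue, fewer cells of a type and less RNA per cell cannot be told apart.

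Scaled to exon length, decorin was the most abundant of the 9 transcripts in Sham hearts and fibromodulin the least. In NTG Sham hearts the order was Dcn at 352 ± 48.3, Bgn at 202 ± 18.8, Ogn at 78.9 ± 4.82, Hspg2 at 56.7 ± 8.16, Lum at 33.0 ± 3.81 and Prelp at 31.0 ± 2.42 CPM per kb (mean ± SD, n = 5). Aspn followed at 15.1 ± 0.585, Vcan at 0.807 ± 0.0958 and Fmod at 0.203 ± 0.111 CPM per kb. Lum and Prelp did not differ beyond their spread, while the other neighbours in this order were separated by more than the sum of their SDs. TG Sham hearts gave the same order of means, with Dcn at 322 ± 34.6 and Fmod at 0.148 ± 0.0944 CPM per kb (n = 5) at its ends. In NTG TAC hearts the mean of Bgn, 594 ± 351 CPM per kb, lay above that of Dcn, 426 ± 74.3 (n = 10), with spreads that overlapped. In TG TAC hearts Dcn stayed above Bgn, at 371 ± 41.0 against 298 ± 64.2 CPM per kb (n = 10). Fmod stood at 1.15 ± 0.651 CPM per kb in TG TAC and at 4.89 ± 4.49 in NTG TAC hearts.

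**Figure D1:**
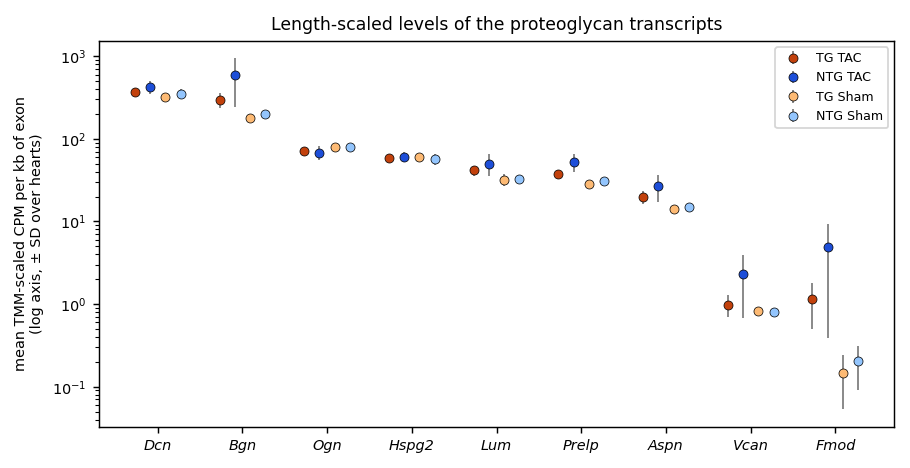
Mean TMM-scaled CPM per kb of exon (log axis) of the 9 transcripts in the 4 groups, TG TAC leftmost and NTG Sham rightmost at each gene, ordered by the NTG Sham mean; bars are SDs over the 10 TAC or 5 Sham hearts of a group. Dcn and Bgn lie at the top, Vcan and Fmod at the bottom, and Bgn, Vcan and Fmod have the widest bars in NTG TAC hearts.

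After TAC, 6 of the 9 members were called higher in NTG TAC hearts than in NTG Sham hearts and none lower, where 9.46% of all tested genes were called higher. These were Bgn, Lum, Fmod, Prelp, Aspn and Vcan, with a median log2 change over the 9 members of 0.77 beside 0.00 over all genes. Dcn, Ogn and Hspg2 were not called. Between TG TAC and TG Sham hearts none of the 9 was called, where 1.43% of all genes were called in either direction. Of these 9, 5 had an unadjusted p under 0.05 and 7 had a positive change, with a median of 0.37. In the same comparison DESeq2 called 1 of the 9, Fmod, where 1.76% of genes were higher, and limma voom with sample weights called 4, Bgn, Lum, Prelp and Aspn, where 5.23% were. Fits to the 2 compared groups alone turned this round. They called 4 members higher in TG TAC than TG Sham hearts, Bgn, Fmod, Prelp and Aspn, where 4.21% of genes were higher, and 2 in NTG TAC against NTG Sham hearts, Fmod and Prelp, where 0.993% were. Which genotype has more members called after TAC thus depends on the fit.

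In TG TAC hearts 5 members were called lower than in NTG TAC hearts and none higher, where 6.86% of all genes were called lower. They were Bgn, Fmod, Prelp, Aspn and Vcan, and the median log2 difference of the 9 was -0.45 beside -0.01 over all genes. Fitted to the 20 TAC hearts alone, Prelp was the one member called (adjusted p = 0.0266), where 2.55% of genes were lower, and with 1 surrogate variable in the fit none of the 9 was called, where 0.935% of genes were lower. Between TG Sham and NTG Sham hearts none of the 9 was called by edgeR, by DESeq2 or by limma voom, where these called 0.729%, 1.03% and 1.86% of all genes. In the edgeR fit to all 4 groups none of the 9 had an unadjusted p under 0.05 in this comparison. The comparisons share groups: NTG TAC hearts enter both the TAC comparison in NTG and the genotype comparison in TAC, so the calls in these are not independent.

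**Figure D2:**
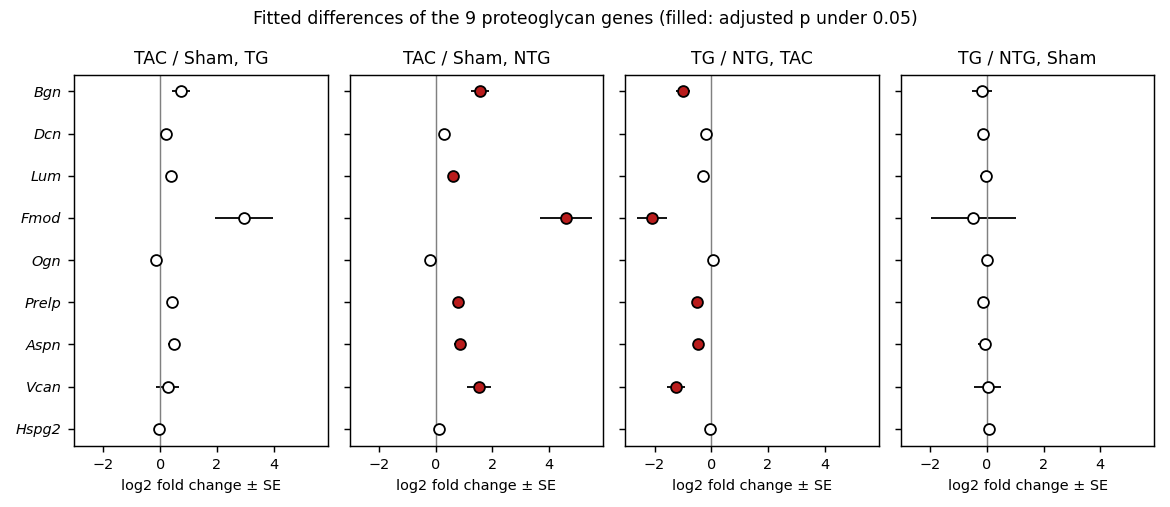
Log2 fold change ± SE of the 9 proteoglycan genes from the 4-group fit, for TG TAC over TG Sham, NTG TAC over NTG Sham, TG TAC over NTG TAC and TG Sham over NTG Sham; filled points have an adjusted p under 0.05. There are 6 filled points right of 0 for TAC in NTG and 5 left of 0 for TG over NTG in TAC, and Fmod has the widest bars.

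Biglycan (Bgn, gene ID 12111, chrX:73483601-73495936, GRCm38) is a small proteoglycan of class I that binds collagen and, when set free, Toll-like receptors. Bgn stood at 391 TMM-scaled CPM in the lowest, 750.5 at the median and 959 in the highest of the TG TAC hearts, against 458, 1366 and 3105 in the NTG TAC hearts. The 5 TG Sham hearts read 497, 412, 422, 381 and 456 TMM-scaled CPM for Bgn, and the 5 NTG Sham hearts 431, 506, 501, 454 and 545. In NTG TAC hearts replicates 2, 3, 5, 8 and 10 were the high ones, replicates 1 and 7 lay among the Sham hearts, and 8 of 10 exceeded the highest NTG Sham heart. In TG TAC hearts 9 of 10 exceeded the highest TG Sham heart, and replicate 1 did not. By the number in the sample names, replicate 1 also lies among the TG Sham hearts, and every other TG TAC heart has a lower number than all of them. The TAC comparison in TG hearts is thus nearly the same grouping as that number, whose meaning is not given in the sources used here. The log2 change with TAC was 0.73 ± 0.32 (SE, adjusted p = 0.27) in TG and 1.56 ± 0.33 (SE, adjusted p = 0.00403) in NTG hearts. All 10 TG TAC hearts lay below the NTG TAC mean, which the high hearts raised, and 1 of 10 lay below the lowest NTG TAC heart. Dcn and Lum, not called between these groups, also had all 10 TG TAC hearts below their NTG TAC means. Bgn differed by -0.996 ± 0.253 (SE, adjusted p = 0.0144) between TG TAC and NTG TAC hearts. Fitted to each pair of groups alone, the adjusted p of Bgn was 0.0161 for TAC in TG, 0.0641 for TAC in NTG and 0.0561 for TG against NTG in TAC.

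Decorin (Dcn, gene ID 13179, chr10:97479500-97518163), the other classical class I member, binds collagen fibrils and TGF-beta. Dcn stood at 578 TMM-scaled CPM in the lowest, 727 at the median and 813 in the highest of the TG TAC hearts, against 643, 822 and 1088 in the NTG TAC hearts. In Sham hearts Dcn read 677, 579.8, 561, 588 and 713 TMM-scaled CPM with the transgene (TG Sham) and 571, 637, 819, 724 and 663 without it (NTG Sham). The groups overlapped throughout, and 6 of 10 TG TAC hearts and 5 of 10 NTG TAC hearts exceeded the highest Sham heart of their genotype. The log2 change with TAC was 0.21 ± 0.11 (SE, adjusted p = 0.373) in TG and 0.27 ± 0.11 (SE, adjusted p = 0.0701) in NTG hearts, with 95% intervals of -0.00 to 0.41 and 0.07 to 0.48. Between TG TAC and NTG TAC it was -0.20 ± 0.09 (SE, adjusted p = 0.126). With all libraries Dcn was not called in NTG hearts, but it passed without NTG Sham replicate 3, NTG TAC replicate 1 or NTG TAC replicate 7, at an adjusted p of 0.0422, 0.0345 or 0.0316.

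Asporin (Aspn, gene ID 66695, chr13:49544443-49567565), the third class I member, carries an aspartate-rich stretch near its start. Aspn stood at 32.2 TMM-scaled CPM in the lowest, 46.9 at the median and 58.8 in the highest of the TG TAC hearts, against 33.8, 58.1 and 105.5 in the NTG TAC hearts. The 5 TG Sham hearts read 29.3, 35.3, 33.1, 29.3 and 38.7 TMM-scaled CPM for Aspn, and the 5 NTG Sham hearts 34.4, 34.7, 37.5, 34.3 and 34.4. Of the TG TAC and of the NTG TAC hearts, 9 of 10 exceeded the highest Sham heart of their genotype, replicate 1 being the exception in each. Aspn changed with TAC by 0.48 ± 0.19 (SE, adjusted p = 0.215) in TG and 0.85 ± 0.19 (SE, adjusted p = 0.00538) in NTG hearts. Its difference between TG TAC and NTG TAC hearts, -0.45 ± 0.15 (SE, adjusted p = 0.0481), was at the edge of the threshold: the call was lost when any of 23 of the 30 libraries was left out, with adjusted p-values over all 30 omissions of 0.00969 to 0.124. In fits to the groups alone the adjusted p was 0.0208 for TAC in TG, 0.0663 for TAC in NTG and 0.113 between genotypes in TAC.

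Lumican (Lum, gene ID 17022, chr10:97565501-97572703) opens class II, whose members carry keratan sulfate in some tissues and bind collagen fibrils at other sites than decorin. Lum stood at 64.6 TMM-scaled CPM in the lowest, 106.2 at the median and 115.3 in the highest of the TG TAC hearts, against 66.3, 121 and 176 in the NTG TAC hearts. Lum values were 78.3, 73.7, 70.7, 70.0 and 100.3 TMM-scaled CPM in the 5 TG Sham hearts and 66.0, 79.2, 89.8, 87.6 and 80.9 in the 5 NTG Sham hearts. Of the TAC hearts, 7 of 10 TG and 8 of 10 NTG hearts exceeded the highest Sham heart of their genotype, and replicate 1 of each group was among the Sham values or below them. Lum changed with TAC by 0.37 ± 0.17 (SE, adjusted p = 0.306) in TG and 0.61 ± 0.17 (SE, adjusted p = 0.0163) in NTG hearts, and by -0.28 ± 0.14 (SE, adjusted p = 0.172) between TG TAC and NTG TAC hearts. The call in NTG was lost without NTG Sham replicate 1 (adjusted p = 0.0508) and in the fit to the groups alone (adjusted p = 0.0954). Between the genotypes, Lum passed without NTG TAC replicate 1 (adjusted p = 0.0408).

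Fibromodulin (Fmod, gene ID 14264, chr1:134037254-134048280), a class II member that guides collagen cross-linking, had the largest changes of the 9. Fmod stood at 0.187 TMM-scaled CPM in the lowest, 3.78 at the median and 6.57 in the highest of the TG TAC hearts, against 1.30, 11.8 and 38.4 in the NTG TAC hearts. The 5 TG Sham hearts read 0.469, 0.270, 0.637, 0.0909 and 0.839 TMM-scaled CPM for Fmod, and the 5 NTG Sham hearts 0.200, 0.575, 1.05, 0.433 and 0.917. All 10 NTG TAC hearts lay above all 5 NTG Sham hearts, as did 0.898% of tested genes, while TG TAC replicate 1 had 2 counts and lay among the TG Sham hearts. Within NTG TAC hearts the values formed a high set, replicates 2, 3, 5, 8 and 10, and a low set. Fmod rose with TAC by 4.58 ± 0.92 (SE, adjusted p = 0.00281) in NTG hearts, with a 95% interval of 2.78 to 6.39, and its change in TG hearts was 2.96 ± 1.04 (SE, adjusted p = 0.157), with an interval of 0.93 to 4.99. All 10 TG TAC hearts lay below the NTG TAC mean, which the high set raised, and 2 of 10 lay below the lowest NTG TAC heart. The difference between TG TAC and NTG TAC hearts was -2.10 ± 0.53 (SE, adjusted p = 0.0142). The rise in NTG hearts passed in each of 10 other settings and in each of 30 omissions of a library. Its adjusted p was close to the threshold at 0.0487 in the groups alone, and reached 0.0488 over the settings. The size of the rise was 3.05 by limma-trend on the deposited CPM with a pseudocount of 0.5 and 2.79 with a surrogate variable. Between the genotypes the adjusted p was 0.0542 in the TAC groups alone and 0.195 with sample weights, where the difference was -1.26.

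Prolargin (Prelp, gene ID 116847, chr1:133910304-133930102), a class II member with a basic end that binds heparan sulfate, linking basement membrane to collagen, had smaller and more even changes. Prelp stood at 98.4 TMM-scaled CPM in the lowest, 140.4 at the median and 158 in the highest of the TG TAC hearts, against 129, 188 and 266 in the NTG TAC hearts. Prelp values were 98.7, 100.5, 110.0, 92.8 and 105.02 TMM-scaled CPM in the 5 TG Sham hearts and 103.6, 121, 113.3, 102.3 and 119 in the 5 NTG Sham hearts. Every NTG TAC heart lay above every NTG Sham heart, as was so for 0.898% of tested genes. Of the TG TAC hearts, 9 of 10 lay above every TG Sham heart, replicate 1 being the exception. It is also the only TG TAC heart whose name number lies among those of the TG Sham hearts. Prelp rose with TAC by 0.77 ± 0.13 (SE, adjusted p = 0.000999) in NTG hearts and changed by 0.41 ± 0.13 (SE, adjusted p = 0.11) in TG hearts, where the groups alone gave an adjusted p of 0.00782. It was -0.50 ± 0.10 (SE, adjusted p = 0.00387) on the log2 scale in TG TAC against NTG TAC hearts, with 10 of 10 TG TAC hearts below the NTG TAC mean and 4 of 10 below the lowest NTG TAC heart. The call in NTG held in each of 10 other settings, and that between genotypes in 9 of them, with an adjusted p of 0.0591 beside a surrogate variable.

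Osteoglycin (Ogn, gene ID 18295, chr13:49608015-49624501), also called mimecan, is the class III member. Ogn stood at 165 TMM-scaled CPM in the lowest, 183 at the median and 205 in the highest of the TG TAC hearts, against 95.4, 187 and 207 in the NTG TAC hearts. In Sham hearts Ogn read 208, 198, 199.9, 192 and 213 TMM-scaled CPM with the transgene (TG Sham) and 198, 197, 223, 204 and 190.1 without it (NTG Sham). Apart from replicate 2 of NTG TAC, the lowest heart, the hearts of all groups lay at 142 to 223 TMM-scaled CPM. The log2 change with TAC was -0.14 ± 0.10 (SE, adjusted p = 0.567) in TG and -0.22 ± 0.10 (SE, adjusted p = 0.138) in NTG hearts, with 95% intervals of -0.34 to 0.06 and -0.42 to -0.02. Fitted to the groups alone, it was -0.14 ± 0.05 (SE, adjusted p = 0.0889) in TG and -0.22 ± 0.13 (SE, adjusted p = 0.311) in NTG hearts. Of the TAC hearts, 8 of 10 TG and 6 of 10 NTG hearts lay below the lowest Sham heart of their genotype. The difference between TG TAC and NTG TAC hearts was 0.07 ± 0.08 (SE, adjusted p = 0.6).

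Versican (Vcan, gene ID 13003, chr13:89655309-89743027), the large chondroitin sulfate proteoglycan of provisional matrix, had the lowest level per kb after Fmod in each Sham group. Vcan stood at 7.46 TMM-scaled CPM in the lowest, 13.1 at the median and 20.6 in the highest of the TG TAC hearts, against 7.31, 25.8 and 68.5 in the NTG TAC hearts. In Sham hearts Vcan read 11.8, 12.5, 10.2, 9.73 and 10.8 TMM-scaled CPM with the transgene (TG Sham) and 10.1, 10.5, 12.6, 9.31 and 11.6 without it (NTG Sham). Replicates 2, 3, 5, 8 and 10 of NTG TAC held the 5 highest values, the other 5 NTG TAC hearts overlapped the Sham and TG TAC hearts, and the TG TAC and TG Sham hearts overlapped on both sides. Vcan rose with TAC by 1.53 ± 0.41 (SE, adjusted p = 0.0132) in NTG hearts, and its change in TG hearts was 0.26 ± 0.40 (SE, adjusted p = 0.822). All 10 TG TAC hearts lay below the NTG TAC mean, which the 5 highest hearts raised, but none lay below the lowest NTG TAC heart. The difference between TG TAC and NTG TAC hearts was -1.24 ± 0.31 (SE, adjusted p = 0.0134). Fitted to the groups alone, the adjusted p was 0.101 for TAC in NTG and 0.0548 between the genotypes, and with a surrogate variable the change in NTG was 0.38 (adjusted p = 0.427).

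Perlecan (Hspg2, gene ID 15530, chr4:137468751-137570630), the heparan sulfate proteoglycan of basement membranes, gave the smallest change of the 9 with TAC in either genotype and between TG TAC and NTG TAC hearts. Hspg2 stood at 751 TMM-scaled CPM in the lowest, 829 at the median and 900.0 in the highest of the TG TAC hearts, against 715, 832 and 1034 in the NTG TAC hearts. Hspg2 values were 911, 936, 863, 843 and 716 TMM-scaled CPM in the 5 TG Sham hearts and 941, 876, 686, 683 and 836 in the 5 NTG Sham hearts. The 4 groups overlapped, and 3 NTG TAC hearts, replicates 2, 3 and 10, lay above all NTG Sham hearts. The log2 change was -0.04 ± 0.09 (SE, adjusted p = 0.882) with TAC in TG, 0.10 ± 0.09 (SE, adjusted p = 0.468) with TAC in NTG and -0.05 ± 0.07 (SE, adjusted p = 0.681) between TG TAC and NTG TAC hearts. The 95% intervals of these were -0.21 to 0.13, -0.07 to 0.27 and -0.19 to 0.09.

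**Figure D3:**
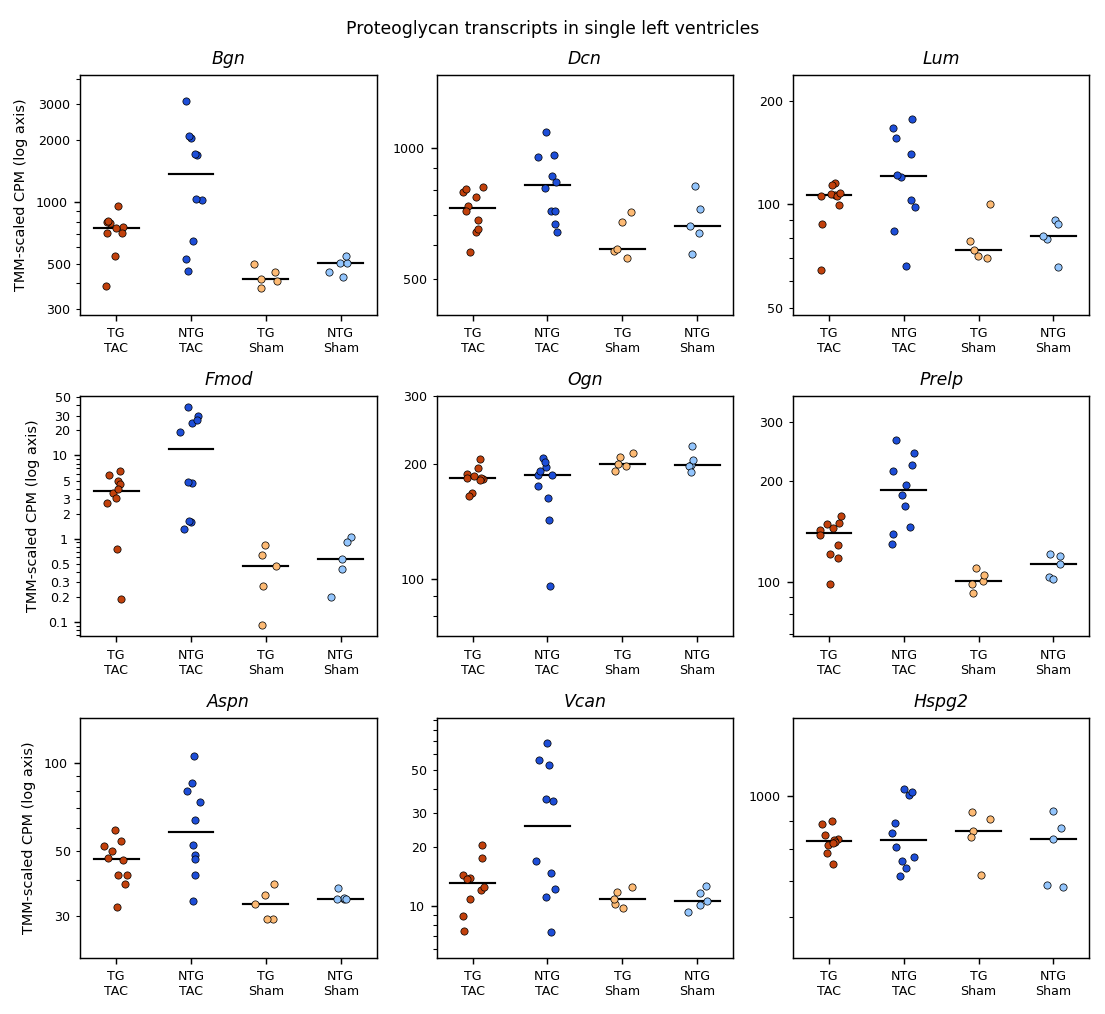
TMM-scaled CPM (log axes) of each proteoglycan gene in single left ventricles, with TAC hearts left of Sham hearts and TG left of NTG in each; each point is a heart and each line a median. For Fmod and Vcan 5 NTG TAC hearts lie apart above the other 5, while Ogn and Hspg2 overlap across the 4 groups.

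TG Sham and NTG Sham hearts were compared to see whether the transgene moved these genes without pressure load. Log2 differences ran from -0.47 ± 1.50 for Fmod to 0.09 ± 0.10 for Hspg2 (SE), 7 of 9 were negative, and their median was -0.08. For Bgn the 95% interval was -0.87 to 0.53, for Prelp -0.44 to 0.15 and for Vcan -0.90 to 0.95. These widths come from a spread shared by all 4 groups, and differences within them remain possible. Fitted to the Sham groups alone, Bgn differed by -0.17 ± 0.08 (SE, adjusted p = 0.375) and Prelp by -0.14 ± 0.06 (SE, adjusted p = 0.363). In that fit Vcan differed by 0.02 ± 0.11 (SE, adjusted p = 0.971). The interval for Fmod, -3.42 to 2.47, was wide at its few counts. Prelp was below the NTG Sham mean in 5 of 5 TG Sham hearts, and Bgn and Dcn in 4 of 5 each.

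Whether TAC changed the members differently in the genotypes was tested as an interaction, the change in TG minus the change in NTG. None of the 9, and 0 (0%) of all 13588 genes, passed in edgeR, where 1103 genes had an unadjusted p under 0.05; DESeq2 called 5 genes and limma-trend 1, none of them a member. Of the 9 estimates 8 were negative, with a median of -0.36 beside 0.00 over all genes. With 1 surrogate variable 5 of the 9 were negative, and Bgn, Fmod, Aspn and Hspg2 turned positive at 0.0097, 0.065, 0.014 and 0.012. Vcan had the one unadjusted p under 0.05, with an interaction of -1.27 ± 0.56 (SE, unadjusted p = 0.0329, adjusted p = 0.614). Fmod had the largest estimate, -1.63 ± 1.68 (SE, adjusted p = 0.762), with a 95% interval of -4.91 to 1.66. By p, Vcan was followed by Prelp at -0.36 ± 0.18 (SE, adjusted p = 0.618), Bgn at -0.83 ± 0.44 (SE, adjusted p = 0.618) and Aspn at -0.37 ± 0.26 (SE, adjusted p = 0.67). A change with TAC in NTG hearts that was not called in TG hearts was therefore not shown to differ between the genotypes for any member.

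TAC hearts varied among themselves, and members were set against Nppa, the atrial natriuretic peptide gene that cardiomyocytes raise under load. Nppa ran from 87.8 to 994 TMM-scaled CPM over the 10 TG TAC hearts. In NTG TAC hearts it fell into 2 sets, 5666 to 9462 CPM in replicates 2, 3, 5, 8 and 10 and 386 to 1611 CPM in the other 5, with no heart between them, so the slope there rests mostly on the difference between the sets and no correlation is given. The change in log2 level per doubling of Nppa was positive and called for 7 members in NTG TAC hearts, and negative and called for Ogn, where 32.0% of all genes were called. Per doubling, Fmod was higher by 1.06 ± 0.09 (SE, adjusted p = 4.34e-08), Vcan by 0.62 ± 0.07 (SE, adjusted p = 1.63e-06) and Bgn by 0.51 ± 0.04 (SE, adjusted p = 3.38e-08). Ogn had a slope of -0.10 ± 0.04 (SE, adjusted p = 0.0311), a call lost without NTG TAC replicate 1, 2, 3 or 6 (adjusted p = 0.0772, 0.0721, 0.0738 and 0.0565), and Dcn, at 0.07 ± 0.03 (SE, adjusted p = 0.101), was not called.

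Within TG TAC hearts Fmod was the only member called, at 1.20 ± 0.23 (SE, adjusted p = 0.0359) per doubling of Nppa, where 0.221% of genes were called. That call was lost in 7 of 20 omissions of a heart: the adjusted p was 0.999 without TG TAC replicate 1, 0.147 without TG TAC replicate 6, and 0.0506 to 0.0566 without TG TAC replicates 3, 7, 8 and 9 or NTG TAC replicate 9. Bgn had a slope of 0.33 ± 0.08 (SE, adjusted p = 0.0766) and Vcan of 0.16 ± 0.13 (SE, adjusted p = 0.798). The slopes of TG TAC and NTG TAC hearts differed for none of the 9, where 0.0147% of genes were called; Vcan, with a difference of -0.47 ± 0.14 (SE, adjusted p = 0.388), had the smallest p. Members and Nppa were read from the same libraries, and the part of shared depth or tissue makeup in these slopes was not tested.

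**Figure D4:**
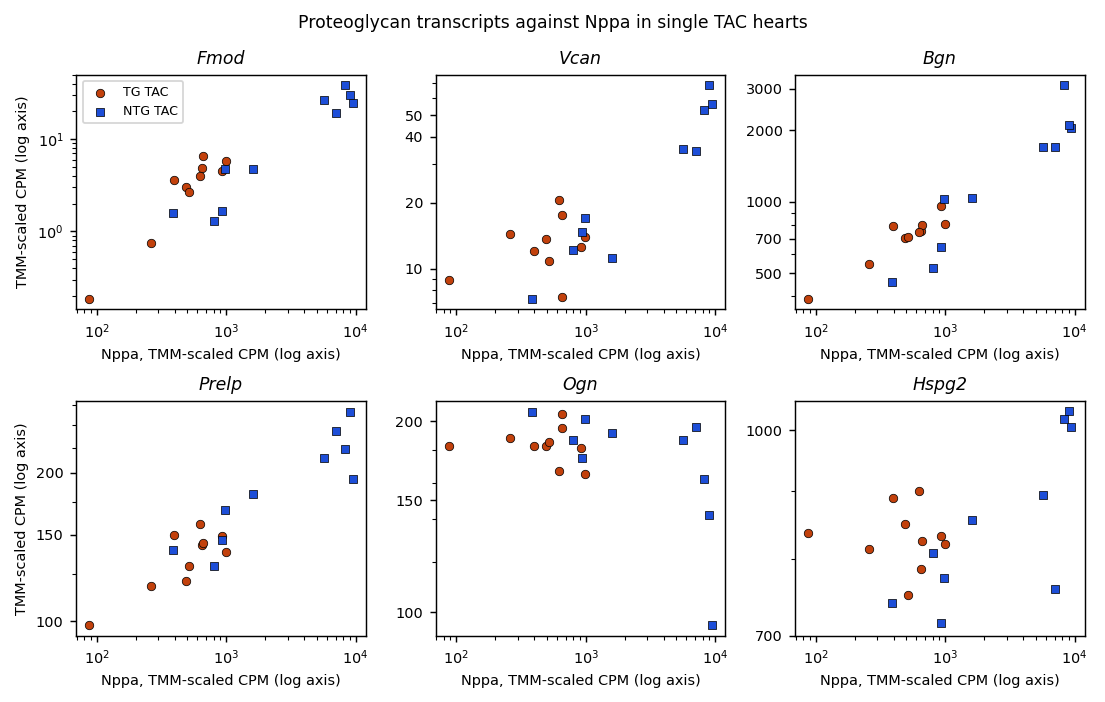
TMM-scaled CPM of Fmod, Vcan, Bgn, Prelp, Ogn and Hspg2 against Nppa in single TAC hearts (log axes on both sides), circles for the 10 TG TAC and squares for the 10 NTG TAC hearts. The 5 NTG TAC hearts with Nppa of 5666 CPM or more also hold the 5 highest values of Fmod, Vcan and Bgn, and no TG TAC heart reaches that range of Nppa.

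The small members lie in 3 groups of neighbouring genes besides Bgn on the X chromosome, and neighbours did not all change alike. On chromosome 10, Dcn and Lum lie 47 kb apart, and beyond Lum, Kera had 0 counts in all 30 libraries and Epyc 2 counts in total. On chromosome 1, Prelp and Fmod, both higher after TAC in NTG hearts, are neighbours, and Optc beside Prelp had 59 counts in total. On chromosome 13, Ecm2, Aspn, Omd and Ogn lie in a row, with 40 kb between Aspn and Ogn. After TAC in NTG hearts Aspn was called higher and so was Omd, osteomodulin, at 0.97 ± 0.27 (SE, adjusted p = 0.0144), while Ecm2, at 0.20 ± 0.10 (SE, adjusted p = 0.153), and Ogn were not called. Omd averaged 2.18 ± 0.805 TMM-scaled CPM in NTG TAC (n = 10) and 1.10 ± 0.376 in NTG Sham hearts (SD, n = 5).

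The 250 bases before a transcript start of these 2 pairs of neighbours are shown because 1 pair rose together after TAC in NTG hearts and of the other pair only Aspn did. They are RefSeq sequences of the build GRCm38.p6, from 1 annotated start per gene, which for Prelp lies inside the gene's full span given above, written 5′ to 3′ in the direction of transcription, with capitals for matches to TATAAA or GGAATG.
Prelp (chr1:133921402-133921651, minus strand): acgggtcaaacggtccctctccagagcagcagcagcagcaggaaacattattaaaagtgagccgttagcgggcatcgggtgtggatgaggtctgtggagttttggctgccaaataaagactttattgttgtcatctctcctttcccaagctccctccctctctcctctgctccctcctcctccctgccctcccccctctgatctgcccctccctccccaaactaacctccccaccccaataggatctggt
Fmod (chr1:134037004-134037253, plus strand): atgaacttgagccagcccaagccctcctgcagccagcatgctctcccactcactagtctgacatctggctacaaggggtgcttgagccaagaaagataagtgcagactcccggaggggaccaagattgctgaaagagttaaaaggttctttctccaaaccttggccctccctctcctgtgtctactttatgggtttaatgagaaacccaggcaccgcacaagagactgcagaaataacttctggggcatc
Aspn (chr13:49544193-49544442, plus strand): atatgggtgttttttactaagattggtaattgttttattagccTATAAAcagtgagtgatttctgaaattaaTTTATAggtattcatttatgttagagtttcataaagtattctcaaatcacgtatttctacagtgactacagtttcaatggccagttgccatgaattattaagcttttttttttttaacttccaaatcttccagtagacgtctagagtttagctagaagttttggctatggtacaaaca
Ogn (chr13:49607765-49608014, plus strand): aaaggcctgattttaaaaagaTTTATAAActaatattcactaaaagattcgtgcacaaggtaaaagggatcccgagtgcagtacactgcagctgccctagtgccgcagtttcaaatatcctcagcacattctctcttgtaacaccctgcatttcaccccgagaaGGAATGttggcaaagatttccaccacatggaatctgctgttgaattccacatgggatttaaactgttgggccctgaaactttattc

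In the windows of 7 members, 3 motifs were searched on both strands of the 250 bases: the AP-1 element TGANTCA, the TEAD element GGAATG and the TATA box TATAAA. Aspn holds 2 copies of TATAAA, with first bases at positions -207 and -178 from the start, and Ogn holds 2 that overlap, at -229 and -227. Ogn also holds GGAATG at -86. The same windows of Prelp, Fmod, Bgn, Vcan and Hspg2 hold none of the 3. Over 32851 promoter windows, 6.75% hold the AP-1 letters, 12.6% the TEAD letters and 12.4% the TATA letters.

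Other genes that varied like each member were ranked by Pearson r of log2 CPM over the 30 libraries, a description across hearts of 4 groups that share load and library. NTG TAC replicates 2, 3, 5, 8 and 10, the set with high Nppa, also held the highest values of Bgn, Fmod and Vcan. A high r can therefore rest on that set and need not show a graded relation. Nearest to Bgn were Serpinf1 (r = 0.987), Col8a1 (0.983) and Ssc5d (0.981). Nearest to Fmod were Mfap4 (0.978), Dkk3 (0.969) and Svep1 (0.968), to Prelp Ccdc80 (0.948), Mfap4 (0.946) and Fmod itself (0.943), and to Vcan Dbn1 (0.962), Emp1 (0.959) and Fstl1 (0.957). Lum was nearest to its fellow member Aspn (0.916), then to Mmp2 (0.911) and Tgfbi (0.906), and Aspn to Svep1 (0.943), Srpx2 (0.939) and Frzb (0.937). Dcn had Cygb (0.888), Mcrip1 (0.862) and Igfbp6 (0.859) as its nearest genes. Ogn stood with Akap5 (0.874), H2-K2 (0.859) and Slc16a10 (0.855), and Hspg2 with Micall1 (0.861), Igf2bp2 (0.823) and Arhgef7 (0.817). Mfap4 was near both Fmod and Prelp, and Svep1 near both Fmod and Aspn. Among the members themselves Bgn and Fmod were the closest pair at r = 0.957, and Ogn ran against Vcan at r = -0.69.

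Genes that work with these proteoglycans were counted in lists. The lists too were chosen with earlier results of these data known, so shares of all genes beside their counts are a description and not a test. Of all tested genes, 9.46% were called higher and 8.13% lower for TAC in NTG. Between TG TAC and NTG TAC hearts 4.57% were called higher and 6.86% lower. Fits to the groups alone called 1.64% of genes in either direction for TAC in NTG, 7.22% for TAC in TG and 4.61% between TG TAC and NTG TAC. Of 11 tested fibrillar and fibril-associated collagens that small proteoglycans bind, 9 were higher after TAC in NTG hearts and none lower, with a list median of 1.17 beside 0.00 for all genes. Col12a1, a fibril-associated collagen, changed by 3.25 ± 0.77 (SE, adjusted p = 0.00778), Col14a1 by 1.67 ± 0.35 (SE, adjusted p = 0.00381), Col5a2 by 1.74 ± 0.45 (SE, adjusted p = 0.0113) and Col1a2 by 1.31 ± 0.34 (SE, adjusted p = 0.012). In TG TAC against NTG TAC hearts the same list had 0 higher and 9 lower, with a median of -0.90, and Col12a1 at -2.95 ± 0.56 (SE, adjusted p = 0.00197) led it. Fits to the groups alone called 0 of 11 for TAC in NTG and 1 of 11 between the genotypes. Between TG TAC and TG Sham hearts none of the 11 was called in either fit, with a list median of 0.13.

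Of 19 tested enzymes that build the linker and the chondroitin and dermatan chains, 3 were higher after TAC in NTG hearts and none lower, where 9.46% of all genes were higher. Chpf, a chondroitin polymerizing factor, changed by 0.56 ± 0.14 (SE, adjusted p = 0.00864), and Dse, the epimerase that makes dermatan sulfate, by 0.87 ± 0.25 (SE, adjusted p = 0.0176). Its relative Dsel changed by 0.48 ± 0.17 (SE, adjusted p = 0.0482) in that comparison and by -0.60 ± 0.14 (SE, adjusted p = 0.00738) between TG TAC and NTG TAC hearts, where 4 of the list were lower, beside 6.86% of all genes. Xylt1, a xylosyltransferase that starts the chains, was among them at -0.60 ± 0.17 (SE, adjusted p = 0.0211). Of 19 enzymes of heparan and keratan sulfate only Sulf1, an extracellular sulfatase, was called for TAC in NTG, at 1.13 ± 0.27 (SE, adjusted p = 0.00825), a share below the 9.46% of all genes called higher. Between TG TAC and NTG TAC hearts 1 of this list was higher and 2 lower, where 4.57% and 6.86% of all genes were. Sulf1 was among the lower ones at -0.87 ± 0.21 (SE, adjusted p = 0.0115). Extl1 of this list was the one gene of all the pathway lists called between TG Sham and NTG Sham hearts, at 0.40 ± 0.10 (SE, adjusted p = 0.0485), and it was also higher in TG TAC than NTG TAC hearts, at 0.40 ± 0.07 (SE, adjusted p = 0.000539). In the groups alone no enzyme of either list was called for TAC in NTG, so Chpf, Dse, Dsel and Sulf1 lost that call, while Dsel, Xylt1, Sulf1 and Extl1 were called between TG TAC and NTG TAC hearts.

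Proteases and procollagen factors gave 6 higher and 2 lower of 18 for TAC in NTG, where 8.13% of all genes were lower. Adamts8, a secreted metalloprotease, changed by 2.86 ± 0.69 (SE, adjusted p = 0.00825), Adamts2, which trims procollagen, by 1.24 ± 0.33 (SE, adjusted p = 0.0127), and Htra1, a serine protease, by -0.34 ± 0.08 (SE, adjusted p = 0.00824). Between TG TAC and NTG TAC hearts 6 of this list were lower and none higher, led by Pcolce2, an enhancer of procollagen processing, at -0.52 ± 0.11 (SE, adjusted p = 0.00482). Of 18 receptors and ligands that small proteoglycans bind, 7 were higher after TAC in NTG hearts, among them Tgfb3 at 0.94 ± 0.22 (SE, adjusted p = 0.00662), Lrp1 at 0.69 ± 0.15 (SE, adjusted p = 0.00369) and Met at 1.34 ± 0.33 (SE, adjusted p = 0.00864). In the genotype comparison 6 were lower and 1 higher, where 4.57% of all genes were higher, with Ccn2, a matrix-bound growth factor, at -1.92 ± 0.43 (SE, adjusted p = 0.00662). In the groups alone neither list had a gene called for TAC in NTG, while for TAC in TG 1 of 17 proteases was lower, and 3 of the 18 receptors and ligands were higher and 1 lower.

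Of 16 basement membrane genes 7 were higher after TAC in NTG hearts, with smaller changes, among them Agrn, a heparan sulfate proteoglycan, at 0.27 ± 0.07 (SE, adjusted p = 0.0101) and Sparc at 0.91 ± 0.25 (SE, adjusted p = 0.0166). Of 13 cell-surface proteoglycans 4 were higher and 1 lower, Sdc3 at 0.40 ± 0.12 (SE, adjusted p = 0.0228) and Tgfbr3 at -0.36 ± 0.11 (SE, adjusted p = 0.0229). Of 8 tested hyaluronan-linked genes, Itih5 and Cd44, the hyaluronan receptor, were higher at 1.06 ± 0.25 (SE, adjusted p = 0.00765) and 0.84 ± 0.26 (SE, adjusted p = 0.0255). Among 5 tested of 11 other small proteoglycan genes, Omd was the one called for TAC in NTG, and Tsku, at -0.57 ± 0.19 (SE, adjusted p = 0.0443), the one between the genotypes. In the genotype comparison in TAC, basement membrane genes gave 1 higher and 3 lower, and cell-surface proteoglycans 1 higher and 2 lower. Hyaluronan-linked genes gave 0 higher and 2 lower, where 4.57% of all genes were higher and 6.86% lower. None of the genes of these 4 lists was called between TG TAC and TG Sham hearts by the 4-group fit. In the groups alone Ecm2 was called in that comparison, where 7.22% of all genes were called. No gene of the 4 lists was called for TAC in NTG in such fits, so those calls were all lost, where 1.64% of all genes were called.

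**Figure D5:**
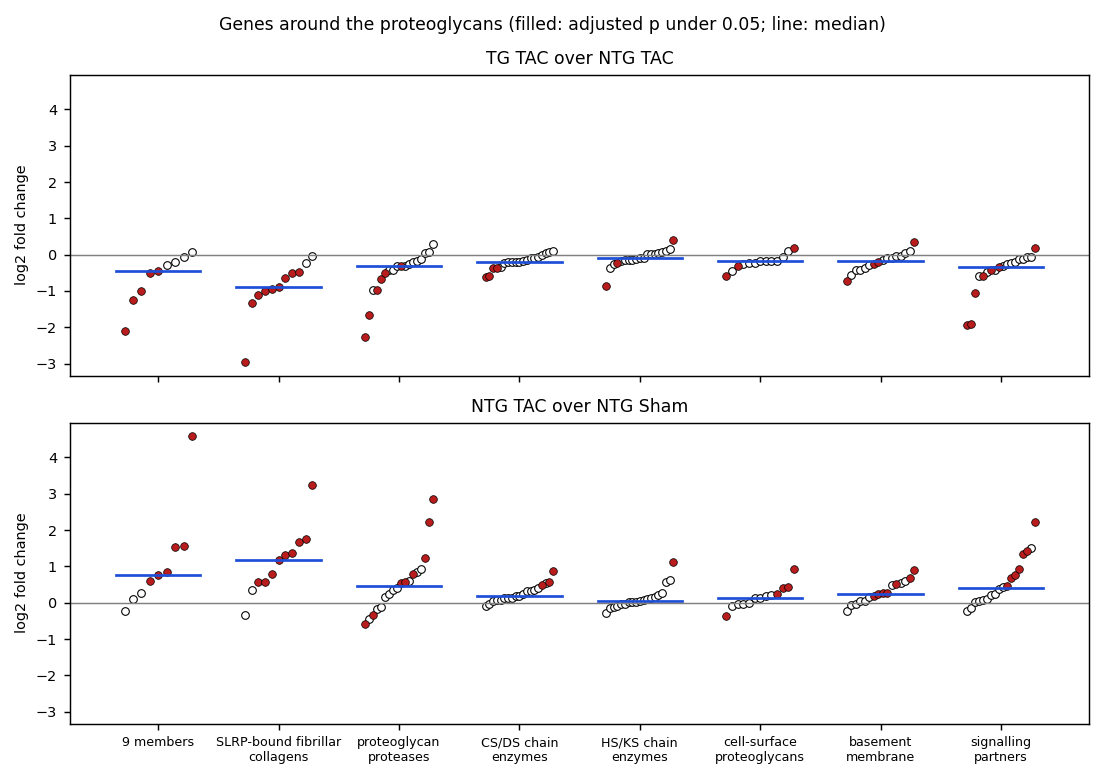
Log2 fold change of the 9 members and of the tested genes of 7 surrounding lists, TG TAC over NTG TAC above and NTG TAC over NTG Sham below; each point is a gene, filled where its adjusted p is under 0.05, and lines are list medians. Both panels contain the NTG TAC hearts. Collagens have the medians farthest from 0, at -0.90 above and 1.17 below.

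Cell type markers were counted in the same way, beside the same shares of all genes, and the lists did not all move alike. Of 12 activated fibroblast markers, 8 were higher and 1, Acta2, lower after TAC in NTG hearts, and 1 higher and 8 lower between TG TAC and NTG TAC hearts. Between TG TAC and TG Sham hearts the 4-group fit called none of the 12, with a list median of 1.15. In the groups alone 7 of 11 tested were higher in TG TAC than TG Sham hearts, Postn, Cilp, Thbs4, Comp, Ltbp2, Sfrp2 and Tnc, and for TAC in NTG 2 of 12 were higher, Cilp and Sfrp2, and Acta2 lower. The summed level of the list was 388 to 572 CPM in TG TAC, 229 to 2752 in NTG TAC, 379 to 595 in TG Sham and 338 to 419 in NTG Sham hearts, with none of the 12 at 0 throughout a group. This sum includes Acta2, which moved against the list median with TAC. Its log2 change was -0.59 ± 0.16 (SE, adjusted p = 0.0553) in TG and -0.93 ± 0.16 (SE, adjusted p = 0.000965) in NTG hearts. Postn, periostin of activated fibroblasts, averaged 92.9 ± 31.1 TMM-scaled CPM in TG TAC and 452 ± 469 in NTG TAC hearts (SD, n = 10 each), a log2 difference of -2.28 ± 0.50 (SE, adjusted p = 0.00632); Col1a1, the main fibrillar collagen, averaged 231 ± 40.8 TMM-scaled CPM in TG TAC and 495 ± 396 in NTG TAC hearts, a log2 difference of -1.10 ± 0.30 (SE, adjusted p = 0.0201). Of 12 tested resident fibroblast markers 4 were higher and none lower for TAC in NTG, and their sum was 1917 to 2254 CPM in TG TAC, 1729 to 2585 in NTG TAC, 1950 to 2338 in TG Sham and 1981 to 2520 in NTG Sham hearts. Of 10 macrophage markers 3 were higher, with sums of 201 to 349, 177 to 699, 232 to 344 and 207 to 268 CPM in the same order of groups. Endothelial markers gave 0 higher and 0 lower of 12 for TAC in NTG. Cardiomyocyte markers gave 5 lower of 10, with a sum of 76479 to 87532 CPM in TG TAC, 47387 to 84184 in NTG TAC, 81395 to 88689 in TG Sham and 81966 to 91570 in NTG Sham hearts. Lymphocyte markers gave 5 lower of 8, with 1 NTG Sham heart, replicate 5, at 274 CPM against group medians of 7.03 to 9.58 CPM. Without that heart the same number of members was called for TAC in NTG, 6, while 4 in place of 5 were called between TG TAC and NTG TAC hearts, Aspn having lost its call. Pericyte and smooth muscle markers gave 3 lower of 12, valve and cartilage-like markers 2 higher of 5 with 1 or 2 of the 9 listed at 0 throughout a group, the atrial list 1 higher of 2, which was Dkk3, and mesothelial markers 0 of 2. All 5 load markers, Nppa, Nppb, Myh7, Acta1 and Ankrd1, were higher after TAC in NTG hearts. In the groups alone Nppa, Acta1 and Ankrd1 were called higher with TAC in both genotypes, and none of the resident fibroblast, macrophage, cardiomyocyte, lymphocyte, pericyte and smooth muscle markers was called for TAC in NTG. The part of cell makeup in the members' differences was not tested.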

How the data were processed

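Left ventricle RNA of 30 mouse hearts was sequenced as strand-specific mRNA libraries, per the labels' protocols. The submitters' processing notes name TopHat and Bowtie2 2.2.9, Trim Galore 0.6.4, the build mm10 and edgeR 3.17 among the authors' tools. The counting program and its strand setting are not given in the sources used here. The authors deposited raw counts per gene and CPM for each library. The deposited CPM equalled counts divided by the library total to within 7.28e-12, so the counts were analysed and the CPM served as an alternative. Symbols for 24437 of 24467 gene IDs came from RefSeq and for 7 from GENCODE, and 23 had none. Exon lengths are from GENCODE and coordinates from RefSeq, both for GRCm38, the same build.

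Counts were fitted in R 4.3.3 with edgeR 4.0.16 (TMM factors, filterByExpr with a minimum count of 10, robust quasi-likelihood test) as 1 model of the 4 groups over 30 libraries, so a standard error reflects all groups. Adjusted p-values are Benjamini-Hochberg over all tested genes, from two-sided F tests. The SE is the absolute log2 change divided by the square root of F, and 95% intervals are 1.96 SE to each side. Slopes used the 20 TAC libraries, with log2 CPM (prior count 2) of Nppa centred within each group. Alternatives were RLE factors, no filter, a filter of 1 CPM in 5 libraries, DESeq2 1.42.0, limma 3.58.1 voom with sample weights, limma-trend on log2 of the deposited CPM with a pseudocount of 0.5, the compared groups alone, a replicate block, the number in the sample names, 1 surrogate variable from sva 3.50.0 and omission of each library; slopes were also fitted with Myh7, with deposited Nppa CPM and without the 2 hearts of each group farthest from its median Nppa. The scripts were tested on simulated data. No 2 libraries of a group were duplicates, with chi-square per degree of freedom of at least 2.98 over 110 pairs.

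Members, lists and naming rule were chosen with earlier results of these data known. That rule named all members, up to 4 called genes of smallest p per list and comparison, neighbouring small proteoglycan genes, the 3 genes most like each member, and Nppa, Postn and Col1a1.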

Additional observations from a re-analysis of the deposited data

Results flagged for a closer look

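In 3 of 36 sets of values, a member in a group, a single heart stood apart from the others of its group by its gap over the range; chance gives about 1 in 20. Lum was 64.6 TMM-scaled CPM in replicate 1 of TG TAC, the lowest heart, where the other 9 lay at 87.8 to 115.3. Ogn was 95.4 TMM-scaled CPM in replicate 2 of NTG TAC, the lowest heart, where the other 9 lay at 142 to 207. Aspn was 37.5 TMM-scaled CPM in replicate 3 of NTG Sham, the highest heart, where the other 4 lay at 34.3 to 34.7. TG TAC replicate 1 also had the lowest Nppa of the TG TAC hearts, 87.8 CPM, and NTG TAC replicate 2 the highest Nppa of the NTG TAC hearts, 9462 CPM.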

How the results depend on the processing

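For the 9 members under the 10 other settings of the comparisons of groups, 385 of 440 values kept direction and side of the threshold, 25 lost a call, 14 gained one and 16 changed sign, none of the 16 being called. For the slopes under 6 other settings these counts were 136, 8, 4 and 14 of 162. Members called for TAC in NTG were 6, but 2 in the groups alone and 2 with 1 surrogate variable; the genes called were 17.6%, 1.64% and 2.33%. Members called for TAC in TG were 0, but 1 by DESeq2 and 4 each by voom, in the groups alone and with the surrogate variable; the genes called were 1.43%, 2.80%, 10.1%, 7.22% and 5.84%, and 0.110% with the name number. Members called for TG in TAC were 5, but 1 by voom, 3 by limma-trend, 1 in the groups alone and 0 with the surrogate variable; the genes called were 11.4%, but 4.95% by voom, 4.61% in the groups alone and 2.48% with the surrogate variable. Genes called for TG in Sham were 0.729%, but 1.86% by voom, 1.90% in the groups alone and 1.35% with the surrogate variable, and for the interaction 0%, but 0.0369% by DESeq2 and 0.0074% by limma-trend. The slope in TG TAC was called for 1 member and 0.221% of genes, but for 4 and 1.49% by voom and for 0 and 0% with Myh7 and without the farthest hearts. The difference of slopes was called for 0.0147% of genes, but 0.0589% by voom and 0% with Myh7 and without the farthest hearts. The cause was not tested for any setting. In TG hearts all TG TAC hearts but replicate 1 have lower name numbers than every TG Sham heart. A fit with both TAC and the name number can therefore hardly separate them there. In NTG hearts the name numbers of the TAC and Sham groups overlap.

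Leaving out each library in turn gave 5 to 7 members and 11.3% to 23.6% of genes for TAC in NTG, 0 members and 0.758% to 2.18% for TAC in TG, 0 members and 0.412% to 0.846% for TG in Sham, 4 to 6 members and 6.12% to 17.4% for TG in TAC, and 0 members and 0% to 0.0147% for the interaction. It gave 7 to 8 members and 25.7% to 34.7% for the slope in NTG TAC, 0 to 2 members and 0% to 0.405% in TG TAC, and 0 members and 0% to 0.346% for their difference.

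Over 35 same-numbered pairs of different groups the deviations from the group means correlated at a median of 0.0468 (-0.152 to 0.548). Pairs with unlike numbers were not compared, so whether the replicate numbers pair any of the hearts was not tested. With the replicate block the members and genes called were 6 and 13.4% for TAC in NTG, 0 and 1.24% for TAC in TG, 0 and 0.662% for TG in Sham, 5 and 10.5% for TG in TAC, 0 and 0% for the interaction, 6 and 14.1% for the slope in NTG TAC, 0 and 0.0074% for that in TG TAC, and 0 and 0% for their difference. Under the block the slope of Hspg2 in TG TAC was 0.054, and the slope differences were -0.073 for Lum and 0.0099 for Prelp, each with its sign changed.

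None of the other values that changed sign was called. For TG in Sham, Ogn was 0.026 by limma-trend, 0.026 with the name number and 0.021 with the surrogate variable, Lum was 0.031 with the name number, and Vcan was -0.056 and -0.10 with these terms. Hspg2 was 0.026 for TAC in TG with the name number, -0.061 for TAC in NTG with the surrogate variable, and 0.013 by voom and 0.076 with the surrogate variable for TG in TAC, where Ogn was -0.045. With the surrogate variable the interaction was 0.0097 for Bgn, 0.065 for Fmod, -0.066 for Ogn, 0.014 for Aspn and 0.012 for Hspg2. With Myh7 the slopes in TG TAC were -0.12 for Lum, -0.40 for Aspn and -0.68 for Vcan, and the slope differences -0.37 for Lum and 0.035 for Prelp. Without the farthest hearts the slopes in TG TAC were -0.028 for Lum and -0.10 for Aspn, and the slope differences -0.0021 for Dcn, -0.15 for Lum and -0.40 for Fmod; by voom that of Lum was -0.0021. Single omissions crossed 0 for TG in Sham in Lum (-0.15 to 0.0021), Ogn (-0.036 to 0.034) and Vcan (-0.036 to 0.083), for TAC in TG in Hspg2 (-0.091 to 0.0020), for the slope of Ogn in TG TAC (-0.048 to 0.0075) and for the slope differences of Lum (-0.10 to 0.055), Prelp (-0.055 to 0.0036) and Fmod (-0.013 to 0.28).

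Counts of 1 to 10 per Sham library limit Fmod, and 5 Sham hearts per genotype limit every comparison with them. The other 8 members had at least 76 counts in every heart.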
